A study of Mus musculus with 7 samples.

Results

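The subject is a set of 10 transcription factor genes of limb and dermal mesenchyme, namely Twist1, Twist2, Prrx1, Prrx2, Tbx15, Tbx18, Tbx5, Tbx4, Pitx1 and En1. The set was chosen by name, with earlier results of these data known. All 10 genes were found among the 18089 protein-coding genes that have a position in both genome builds used here, out of 22350 in the mm9 annotation. For each gene, peaks were counted in the 1 kb on either side of its transcription start site (TSS), in the gene body, and within 100 kb on either side, in 6 ChIP-seq peak lists. A peak is a stretch of the genome where sequencing reads pile up after chromatin is pulled down with an antibody, here against acetylation of lysine 27 of histone H3 (H3K27ac) or dimethylation of lysine 4 (H3K4me2). The chondrocyte lists are 2 H3K27ac replicates and 1 H3K4me2 library from primary cells of newborn mouse rib cartilage, used within 2 passages, with no genotype given in the labels. Dermal fibroblasts, primary cells of the dorsal skin of newborn mice, gave 1 H3K27ac list. H3K27ac was also profiled in 1 WT chondrocyte library and in 1 library of the genotype E160(delta/delta);E308(delta/delta), in which Sox9 enhancers had been removed by CRISPR/Cas9 from both alleles. The deletions were made in C57BL/6J embryos, sex was not selected, and neither the strain of the other cells nor the number of animals behind each library is given in the sources used here. An input library made up the 7 samples and has no peak list here.

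Twist1 and Twist2 are basic helix-loop-helix factors that bind E-box motifs, and Twist2 was first described in dermis. Prrx1 and Prrx2 are paired-related homeobox factors of limb and craniofacial mesenchyme. Tbx15 and Tbx18 are related T-box factors, of which Tbx15 is known for the boundary between dorsal and ventral skin in mice and Tbx18 for precursors of the dermal papilla. Tbx5 is the T-box factor of the forelimb, and Tbx4 and Pitx1 act in the hindlimb. En1 is a homeobox factor that marks a fibroblast lineage of dorsal skin. H3K27ac lies at active promoters and enhancers, and H3K4me2 lies at these and also at elements that carry no acetylation.

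Chondrocyte H3K27ac replicates 1 and 2 had 25597 and 20453 peaks, the WT and deletion chondrocytes 33392 and 25230, H3K4me2 66369 and the fibroblasts 19458. Replicate 2 is on GRCm38, since it marked 43.1% of promoters with GRCm38 gene positions and 6.24% with mm9 positions, so it was read with GRCm38 positions and the other 5 lists with mm9. Of 12 chondrocyte marker promoters found, replicate 1 marked 8, replicate 2, WT and the deletion list 10 each, and the fibroblast list 1, that of Sox9. Replicate 1 had no promoter peak at Sox9, Col2a1 or Sox6, which replicate 2, WT and the deletion list all marked. Among these H3K27ac lists, Chad was marked in replicate 1 only. Of 12 dermal fibroblast markers, the fibroblast list marked 8, which does not set it apart from the chondrocyte lists. Replicate 1 marked 6 of them, replicate 2 marked 8, WT and the deletion list 9 each and H3K4me2 10. The fibroblast list held no promoter peak at Col1a1, Col1a2 or Col3a1, the genes of the main fibrillar collagens of skin, which both chondrocyte replicates marked. The promoters of Dpt, Pdgfra and Dpp4 were marked in fibroblasts and in neither replicate, but WT and the deletion list also marked that of Pdgfra. None of 5 keratinocyte marker promoters was marked in any list, 0 of 4 immune and 0 of 4 skeletal muscle markers carried H3K27ac, and the fibroblast list marked 1 of 4 endothelial and 1 of 4 melanocyte markers, against 0 and 1 to 2 in the chondrocyte H3K27ac lists. Only chondrocyte H3K27ac was replicated (n = 2), so every comparison with fibroblasts or between genotypes sets 1 library against others, with no test and no p-value, and the read depth is unknown. Each peak's place in its own list is given as a top percent, the percent of that list's peaks that score at least as high, because scores do not compare between lists.

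At the promoters, the 10 genes were marked more often by H3K4me2, fibroblast H3K27ac and WT chondrocyte H3K27ac than by either chondrocyte H3K27ac replicate. H3K4me2 marked 7 of the 10 promoters, which is near the 66.3% of all promoters that it marked. Over all promoters, too, H3K4me2 marked more than either replicate. The fibroblast list marked 6, where it marked 47.5% of all promoters. Replicate 1 marked 2, against 44.2% of all promoters, and replicate 2 marked 4, against 43.1%, a mean of 3 ± 1.41 promoters (SD, n = 2). The WT list marked 6 (50% of all promoters), as many as the fibroblast list, and the deletion list 4 (47.1%). Replicate 1 marked Twist1 and Tbx5, replicate 2 marked Twist1, Twist2, Prrx1 and Prrx2, and so Twist1 was the 1 gene of the set with a promoter peak in both replicates.

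**Figure D1:**
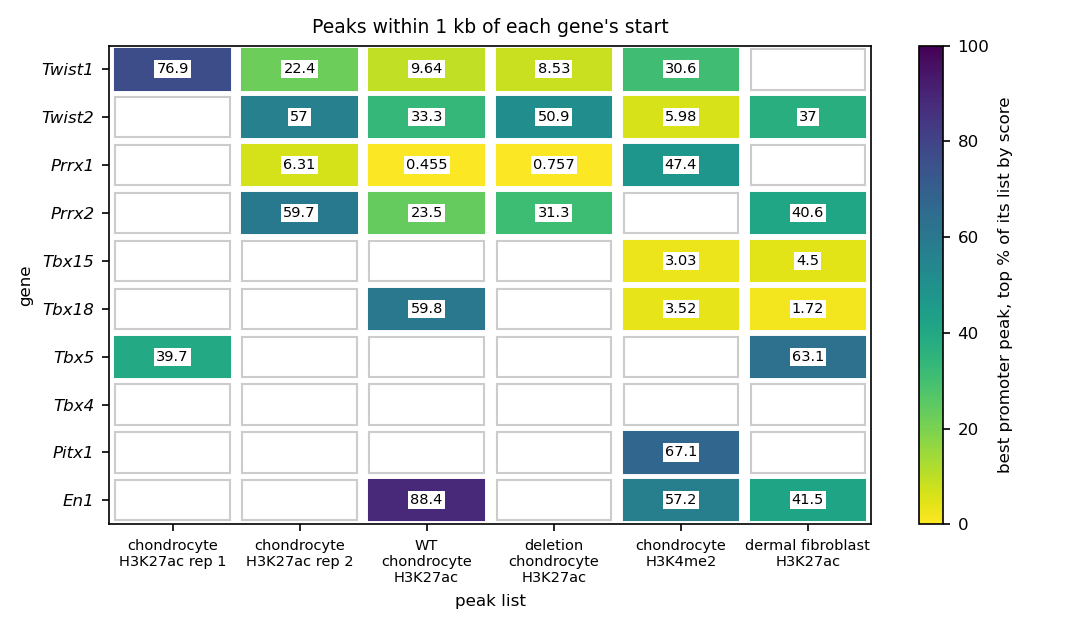
Peaks within 1 kb of the TSS of each of the 10 genes (rows) in each of the 6 lists (columns). A filled cell holds a peak, its colour and number give the top percent of the gene's best promoter peak within that list (low numbers are high-scoring peaks), and an empty cell holds none. Tbx15 and Tbx18 carry high-scoring H3K4me2 and fibroblast peaks, Prrx1 carries peaks within the top 1% of the WT and deletion lists and none in fibroblasts, and Tbx4 is empty throughout.

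Twist1 (chr12:34642536-34644682, plus strand, mm9) had H3K27ac at its promoter in every chondrocyte list and none in fibroblasts. The promoter peak measured 2473 and 2487 bp in the replicates, 6365 bp in WT and 4717 bp in the deletion library, and it ranked in the top 76.9%, 22.4%, 9.64% and 8.53% of those lists. H3K4me2 covered 4538 bp of the same place. The single fibroblast peak of the window lay at 82.7 to 83.4 kb from the TSS, in intergenic sequence. That stretch was the 1 region of the Twist1 window shared by all 5 mm9 lists, and replicate 2 also had a peak at 82.3 to 83.2 kb of its GRCm38 start. Its peak was in the top 24.0% and 34.9% of the replicates, 27.8% of the WT and 38.8% of the deletion peaks, 25.1% of H3K4me2 and 59.5% of the fibroblast list.

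Twist2 (chr1:93698038-93744605, plus strand, mm9) was marked at its promoter in 5 of the 6 lists, with replicate 1 the exception. Its fibroblast promoter peak was 6649 bp wide. The chondrocyte H3K27ac peaks there were a pair in each list, of 246 and 342 bp in replicate 2, 633 and 683 bp in WT, and 227 and 495 bp in the deletion list. The promoter was thus acetylated in both cell types, over a stretch several times wider in fibroblasts, although the lists differ in format and in their lowest score, so widths may not compare between them. Away from the promoter the cell types parted: the fibroblast list had 5 further peaks in the window and the 4 chondrocyte H3K27ac lists had 0. The highest-scoring of the 5, 1530 bp at -44.5 to -42.9 kb in intergenic sequence and in the top 14.0% of the fibroblast list, overlapped an H3K4me2 peak of 1541 bp in the top 17.5%. A fibroblast peak at 102.0 to 102.6 kb, in the top 91.2%, also lay over H3K4me2, and the other 3 overlapped no chondrocyte peak. H3K4me2 had 12 peaks in the Twist2 window, of which 11 overlapped no H3K27ac peak of replicate 1, WT or the deletion list.

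Sequence is shown for 2 distal elements at which chondrocytes held H3K4me2 alone and fibroblasts held H3K27ac, one at Twist2 and one at Tbx15, each as 300 bases of mm9 on the plus strand at the centre of the stretch that the peaks of the 2 marks share. The 4 motifs searched on both strands were the E-box CANNTG bound by Twist factors, the T-box site GGTGTGA, the homeobox site TAATTA and the Pitx site TAATCC. Capitals mark matches. The Twist2 element (chr1:93654116-93654415, -43.8 kb) held none of them, and the Tbx15 element (chr3:99038098-99038397, -6.1 kb) held 2 E-boxes and 1 T-box site. Of 32851 RefSeq promoter entries of the same length of 300 bases, 72.3% held an E-box and 3.98% the T-box site, so these matches are a description only.
Twist2 element: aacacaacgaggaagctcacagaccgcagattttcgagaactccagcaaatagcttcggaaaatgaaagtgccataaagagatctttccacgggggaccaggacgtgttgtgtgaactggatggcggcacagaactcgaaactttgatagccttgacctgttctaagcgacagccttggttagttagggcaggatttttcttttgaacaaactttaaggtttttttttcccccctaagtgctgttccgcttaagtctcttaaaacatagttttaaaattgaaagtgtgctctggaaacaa
Tbx15 element: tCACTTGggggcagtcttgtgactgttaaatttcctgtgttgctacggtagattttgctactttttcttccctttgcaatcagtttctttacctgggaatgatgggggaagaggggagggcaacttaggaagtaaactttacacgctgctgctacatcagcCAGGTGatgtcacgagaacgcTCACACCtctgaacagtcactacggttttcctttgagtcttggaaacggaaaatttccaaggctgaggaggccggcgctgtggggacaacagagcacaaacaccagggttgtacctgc

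Prrx1 (chr1:165175247-165243841, minus strand, mm9) carried the highest-ranking promoter H3K27ac of the set in the WT, deletion and replicate 2 chondrocyte lists and had no promoter peak in fibroblasts. The WT peak over its start was 10814 bp wide, from -1.79 to 9.03 kb, with a fold enrichment of 43.1 at its summit and a place in the top 0.455% of the list. The deletion list had a peak of 9445 bp there with a fold enrichment of 32.0, in the top 0.757%. Replicate 2 had 6925 bp with a fold enrichment of 15.2, from 0.774 to 7.70 kb of the GRCm38 start, in the top 6.31%. The GRCm38 and mm9 gene starts are not the same point. The RefSeq promoter start matched in both builds lies 0.1 kb from the mm9 start. On GRCm38 it is at 163313650, where the gene start is 163315145, and the replicate 2 peak (163307447-163314371) spans it. Replicate 1 had no peak between -54.3 and 19.8 kb, and the fibroblast list none between -43.4 and 32.4 kb. Further H3K27ac in replicate 1 began in the gene body, with peaks of 3553 bp at 19.8 to 23.4 kb and 7447 bp at 26.7 to 34.1 kb. A coding transcript of Prrx1 starts at 24.5 kb, and WT, the deletion list and H3K4me2 had peaks within 1 kb of that start, whereas replicate 1 and fibroblasts did not.

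Both genes that were marked in chondrocytes and not in fibroblasts, Twist1 and Prrx1, lay under WT peaks of at least 5 kb. Over the genome, 223 promoters lay under such a wide WT peak, of which the fibroblast list left 42 (18.8%) unmarked, replicate 1 left 41 (18.4%), H3K4me2 left 62 (27.8%), replicate 2 left 15 (6.73%) and the deletion list left 3 (1.35%). Promoters under wide peaks were thus without a peak in replicate 1 and in H3K4me2, which are chondrocyte lists too, about as often as in fibroblasts or more often. Of 10430 WT promoter peaks of any width, 83.9% overlapped a fibroblast peak, 79.6% replicate 1 and 96.3% H3K4me2. These count overlaps between peaks, a different measure, and for fibroblasts and replicate 1 they leave no clear difference by width. The 3 lists with the highest unmarked shares under wide peaks hold a position and a score only, while the others have the fuller format of MACS2. The part of this in the missing fibroblast peaks at Twist1 and Prrx1 was not tested.

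Prrx2 (chr2:30690492-30736761, plus strand, mm9) was acetylated in both cell types. Replicate 1 had no peak at either start described here, and replicate 2 had a peak at the inner start only. A WT peak of 1809 bp, a deletion peak of 1674 bp and a fibroblast peak of 1665 bp ended within 0.5 kb upstream of the annotated 5' end. A second coding transcript starts at 10.1 kb, and the RefSeq promoter, placed in mm9 by an exact match of its sequence, lies at 10.4 kb. At this inner start the fibroblast peak spanned 9.98 to 11.6 kb and was in the top 10.8% of its list, the WT peak spanned 10.1 to 13.2 kb (top 15.9%), the deletion peak 10.3 to 13.2 kb (top 25.5%) and H3K4me2 9.9 to 12.4 kb (top 36.7%). Replicate 2 had a peak of 271 bp at this same start on GRCm38. The inner start therefore carried H3K4me2 as well as H3K27ac, while the outer start carried H3K27ac without H3K4me2 within 1 kb. An H3K4me2 peak lay just beyond that limit, at 1.44 to 1.89 kb, and a WT peak at 1.35 to 2.14 kb overlapped it.

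Tbx15 (chr3:99044304-99158182, plus strand, mm9) was marked at different starts in the 2 cell types. At the 5' end of the gene, which in GENCODE is the start of a transcript annotated as noncoding, the fibroblast peak was 2592 bp wide, from -0.300 to 2.29 kb, and in the top 4.50% of its list. Chondrocytes held an H3K4me2 peak of 1611 bp there, in the top 3.03%, and none of the 4 chondrocyte H3K27ac lists had a peak. The coding transcript starts at 13.4 kb, and there all 4 chondrocyte H3K27ac lists had a peak: at 13.7 to 14.3 kb in replicate 1 (top 60.0%), 13.5 to 13.9 kb of the RefSeq start in replicate 2 (top 81.3%), 13.1 to 14.2 kb in WT (top 39.2%) and 13.2 to 13.9 kb in the deletion list (top 76.0%). H3K4me2 spanned 12.4 to 15.4 kb. The fibroblast list had no peak in the window downstream of 2.29 kb. Upstream, a fibroblast peak at -6.5 to -5.6 kb (top 71.5%) lay over H3K4me2 alone, and it holds the Tbx15 element printed above. RNA was not analysed here, so which transcripts were made in either cell type is not known from these lists.

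Tbx18 (chr9:87597635-87626095, minus strand, mm9) had the highest-ranking fibroblast promoter peak of the set, 2267 bp from -0.07 to 2.2 kb, in the top 1.72% of its list. H3K4me2 in chondrocytes covered 2870 bp of the same place and was in the top 3.52%. Chondrocyte H3K27ac was small or missing: replicate 1 and the deletion list had no peak in the whole window, replicate 2 had 1 peak at 1.2 to 1.4 kb (top 95.2%), just beyond the 1 kb limit, and WT had a peak of 844 bp at 0.687 to 1.53 kb (top 59.8%). The fibroblast window held that 1 promoter peak and no other.

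En1 (chr1:122498995-122505873, plus strand, mm9) had a fibroblast peak of 5426 bp from 0.093 to 5.52 kb, which covers most of the gene and was in the top 41.5% of its list. H3K4me2 had 4 peaks between -6.44 and 5.81 kb, 3 of them over or at the edge of the gene. In neither replicate, nor in the deletion list, was there any H3K27ac peak in the En1 window. WT had a single peak of 391 bp at 0.292 to 0.682 kb, in the top 88.4%. A second fibroblast peak at -6.2 to -4.6 kb (top 87.7%) lay over the highest-scoring H3K4me2 peak of the window that had no chondrocyte H3K27ac (1623 bp, top 22.3%).

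**Figure D2:**
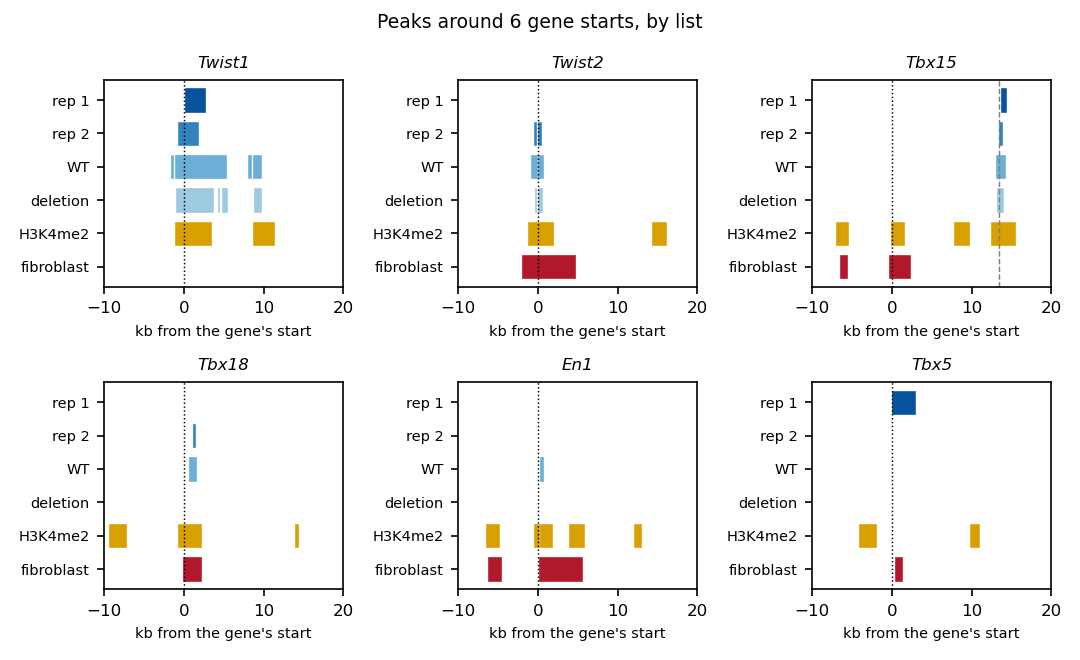
Peaks from 10 kb upstream to 20 kb downstream of the TSS of 6 of the genes, with 1 row per list and each box drawn from the peak's start to its end. The x axis is the distance from the TSS in kb along the gene's strand (for replicate 2, from the RefSeq start on GRCm38), a dotted line marks the TSS and a dashed line a further annotated start. Fibroblast peaks sit at the 5' end of Tbx15 and the chondrocyte H3K27ac peaks at its start 13.4 kb downstream, and Twist1 has chondrocyte peaks only.

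Promoter sequence is shown for Prrx1, which was marked in chondrocytes and not in fibroblasts, and for Tbx18 and En1, which were marked in fibroblasts and in neither replicate. Each line gives the 250 bases before the RefSeq start in GRCm38.p6, read along the gene's strand: Prrx1 at chr1:163313651-163313900 (minus), Tbx18 at chr9:87731261-87731510 (minus) and En1 at chr1:120602237-120602486 (plus). Capitals again mark the 4 motifs.
Prrx1 promoter: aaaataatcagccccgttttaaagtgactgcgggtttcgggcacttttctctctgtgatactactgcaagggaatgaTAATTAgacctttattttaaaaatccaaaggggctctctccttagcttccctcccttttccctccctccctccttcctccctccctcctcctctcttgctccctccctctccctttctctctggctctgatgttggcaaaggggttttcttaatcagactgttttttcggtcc
Tbx18 promoter: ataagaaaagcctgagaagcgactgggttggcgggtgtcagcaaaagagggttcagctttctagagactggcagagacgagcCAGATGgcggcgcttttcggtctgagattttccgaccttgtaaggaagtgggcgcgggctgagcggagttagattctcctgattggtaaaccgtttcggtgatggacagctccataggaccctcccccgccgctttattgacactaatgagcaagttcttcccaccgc
En1 promoter: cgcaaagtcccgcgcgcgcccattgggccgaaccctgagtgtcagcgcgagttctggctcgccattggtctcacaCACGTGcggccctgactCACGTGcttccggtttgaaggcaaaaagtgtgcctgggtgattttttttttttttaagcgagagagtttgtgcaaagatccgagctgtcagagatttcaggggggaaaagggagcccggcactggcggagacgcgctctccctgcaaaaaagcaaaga

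Of the 10 genes, 7 had an entry in the RefSeq promoter table, and all 7 matched 1 place in mm9 exactly. An E-box stood in 3 of the 7 promoters, namely those of Tbx18, Tbx4 and En1, where 66.2% of 32851 RefSeq promoters hold one. TAATTA stood in that of Prrx1 alone, against 4.84% of all promoters, and neither GGTGTGA nor TAATCC stood in any of the 7. CpG dinucleotides were most frequent at Twist2, with 23 in 250 bases, and numbered 21 at Prrx2, 19 at En1, 18 at Twist1, 15 at Tbx18, 6 at Tbx4 and 4 at Prrx1, against a median of 6 over all promoters. The promoter of Prrx1, with the widest H3K27ac peak, was thus the one of the 7 with the fewest CpG dinucleotides.

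The limb-type genes Tbx5, Tbx4 and Pitx1 carried little H3K27ac in either cell type. Tbx5 (chr5:120284672-120335227, plus strand, mm9) had 1 replicate 1 peak of 2911 bp at 0.046 to 2.96 kb (top 39.7%) and 1 fibroblast peak of 895 bp at 0.369 to 1.26 kb (top 63.1%). Replicate 2, WT and the deletion list had none in the Tbx5 window, so the chondrocyte peak was in 1 of 4 lists. H3K4me2 was absent within 1 kb of that start but had 13 peaks in the window, and all 13 were without H3K27ac in replicate 1, WT and the deletion list. The highest-scoring of them, in the top 15.6%, lay in an intron at 31.4 to 32.9 kb.

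Tbx4 (chr11:85699924-85729599, plus strand, mm9) was unmarked at its 5' end in all 6 lists, like 31.3% of all genes. Its window also holds the promoter of Tbx2, a T-box gene of limb and other tissues, and the H3K27ac at -54.7 to -41.7 kb lies there: WT had a peak of 10520 bp there and a smaller one beside it, and the fibroblast list had 2 peaks, of which 1 was at the Tbx2 promoter. Beyond the Tbx2 region, the only fibroblast peak was 478 bp wide at 55.5 to 56.0 kb (top 55.5%), and it overlapped WT and deletion peaks. H3K4me2 had 12 peaks, 6 of them without H3K27ac, and the highest-scoring of the 6, at 108 to 110 kb in intergenic sequence, was in the top 1.80% of that list. A coding transcript of Tbx4 starts at 10.3 kb, and H3K4me2 alone was found within 1 kb of it.

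Pitx1 (chr13:55926415-55937553, minus strand, mm9) had H3K4me2 at its promoter, with peaks of 936 bp (top 67.1%) and 746 bp (top 99.2%), and at its second start at 4.8 kb, and no promoter H3K27ac in any list. Within its gene body replicate 1 alone had a peak, at 7.9 to 8.3 kb (top 94.7%). The other H3K27ac peak of the window, at 108 to 109 kb, was at the promoter of another gene, Pcbd2, and was in all 5 H3K27ac lists. H3K4me2 had 12 peaks, and 10 of them were without H3K27ac in the 3 mm9 chondrocyte lists.

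Set against all protein-coding genes, 3 of the 10 promoters (Tbx15, Tbx18 and En1) were marked in fibroblasts and in neither chondrocyte replicate, a pattern found in 3.76% of all promoters. All 3 also carried chondrocyte H3K4me2, a combination found at 3.58% of all promoters. The opposite pattern, H3K27ac in a replicate and not in fibroblasts, was found at 2 (Twist1 and Prrx1), against 5.04% of all promoters. Chondrocyte H3K4me2 with no H3K27ac in either replicate was found at 4 (Tbx15, Tbx18, Pitx1 and En1), against 19.6%. When no H3K27ac peak was allowed in any of the 4 chondrocyte lists, 2 remained, Tbx15 and Pitx1, against 16%, which is near that background. Of the 3 fibroblast-marked promoters, WT also marked those of Tbx18 and En1, and that of Tbx15 had no H3K27ac peak in any of the 4 chondrocyte lists. The coding start of Tbx15, which had no fibroblast peak, was marked in all 4. With the starts of coding transcripts in place of the 5' end of the gene, the fibroblast pattern was found at Tbx18 and En1 (2, against 4.02% of all genes) and the chondrocyte pattern at Twist1, Prrx1 and Tbx15 (3, against 4.44%). Leaving out replicate 2 raised the fibroblast pattern from 3 to 5 genes, adding Twist2 and Prrx2, and lowered the chondrocyte pattern from 2 to 1, Twist1. No share over all genes is given with replicate 2 left out, and the shares above do not apply to these counts. Prrx2 was counted as marked in replicate 2 at its inner start. Its outer start also held the fibroblast pattern, since neither replicate had a peak there.

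Across the windows, the fibroblast list had 42 H3K27ac peaks and the replicates 32 and 36, a mean of 34 ± 2.83 (SD, n = 2). The median per gene was 2.5 in fibroblasts and 2 in each replicate, against medians of 3, 4 and 3 over all genes, so the medians were lower than over all genes in all 3 lists, most so in replicate 1. Twist2 had 6 fibroblast peaks against 0 and 2 in the replicates, Prrx2 had 17 against 11 and 10, and En1 had 2 against 0 and 0. These 3 genes had more fibroblast peaks than either replicate. Prrx1, with 6 fibroblast peaks against 9 and 13, and Twist1, with 1 against 2 and 2, had fewer than either. The remaining 5 genes lay at or between the replicate counts: Tbx15 had 4 against 5 and 4, Tbx18 1 against 0 and 1, Tbx5 1 against 1 and 0, Tbx4 3 against 2 and 3, and Pitx1 1 against 2 and 1. More fibroblast than replicate 1 peaks were counted at 5 genes (Twist2, Prrx2, Tbx18, Tbx4 and En1), against 21.1% of all genes. With WT in place of replicate 1 the count was 3, and no share over all genes is given for that comparison. The Prrx2 window holds the starts of 6 other protein-coding genes, so its peaks belong in part to them.

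**Figure D3:**
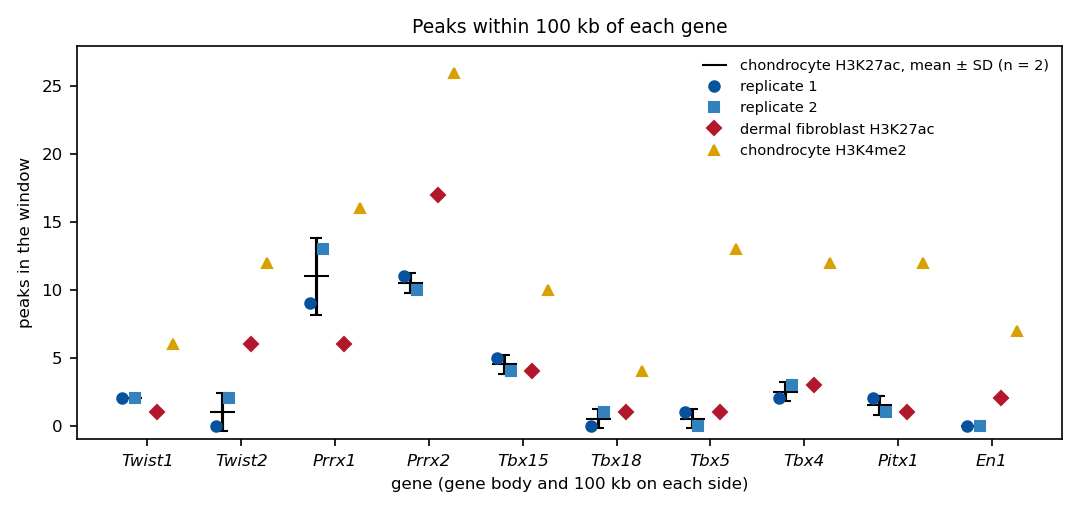
Number of peaks in each gene's window, the gene body and 100 kb on each side, for the 10 genes. Circles and squares are chondrocyte H3K27ac replicates 1 and 2 with a black line for their mean and bars for the SD (n = 2), diamonds are fibroblast H3K27ac and triangles chondrocyte H3K4me2. Fibroblast counts exceed both replicates at Twist2, Prrx2 and En1 and fall below both at Twist1 and Prrx1.

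Fibroblast peaks near the 10 genes overlapped chondrocyte replicate 1 less often than fibroblast peaks in general, and the gap depended on the chondrocyte list it was read against. Of the 42, 16 overlapped a replicate 1 H3K27ac peak by at least 1 bp, which is 38.1% (95% Clopper-Pearson interval 23.6 to 54.4%), against 62.4% of all fibroblast peaks. H3K4me2 with no replicate 1 H3K27ac was found at 18 of the 42, 42.9% (27.7 to 59.0%), against 21.6% of all fibroblast peaks. The intervals cover counting error only, and peaks of 1 window are not independent. Promoter peaks were 14 of the 42, against 9373 of all 19454 fibroblast peaks. At promoters the overlap with replicate 1 was 57.1% of the 14 (28.9 to 82.3%), against 83.3% of all promoter peaks of the list. Promoter peaks overlapped more often than distal ones, so the pooled gap includes this difference in mix. Away from promoters the overlap with replicate 1 was 28.6% of 28 peaks (13.2 to 48.7%), an interval that holds the 42.9% of all distal fibroblast peaks. H3K4me2 with no replicate 1 H3K27ac was found at 46.4% of the 28 (27.5 to 66.1%), against 27.1%. With no H3K27ac in replicate 1, WT or the deletion list, the share was 25% (10.7 to 44.9%), an interval that holds the 14.7% of all distal fibroblast peaks. With WT in place of replicate 1, 27 of the 42 overlapped (64.3%, 48.0 to 78.4%, against 73.8% of all), and this interval holds the value over all fibroblast peaks. Counting H3K27ac in replicate 1, WT or the deletion list, 29 of the 42 lay over chondrocyte H3K27ac (69.0%, 52.9 to 82.4%, against 77.0% of all fibroblast peaks), 8 over H3K4me2 alone and 5 over no chondrocyte peak (11.9%, 3.98 to 25.6%, against 13.4%). The intervals of the first and last of these shares hold the values over all fibroblast peaks. The 8 were 19.05% (8.60 to 34.1%) of the fibroblast peaks, against 9.56% of all, an interval that holds the value over all peaks only near its lower end.

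The 8 fibroblast peaks over H3K4me2 alone were spread over 4 genes: 2 at Twist2, 3 at Prrx2, 2 at Tbx15 and 1 at En1. The 5 over no chondrocyte peak were 3 at Twist2, 1 at Prrx1 and 1 at Tbx15. At Tbx15 the 2 were the promoter peak and the -6.1 kb element, and at En1 the single 1 was the upstream peak. The 3 at Prrx2 lay downstream of the gene, at 67.8, 77.8 and 92.9 kb, with 1, 0 and 4 E-boxes in their central 300 bases. Since 72.3% of RefSeq promoter entries of that length held an E-box, these counts are a description only. Twist1, Tbx18, Tbx5, Tbx4 and Pitx1 had none of either kind.

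**Figure D4:**
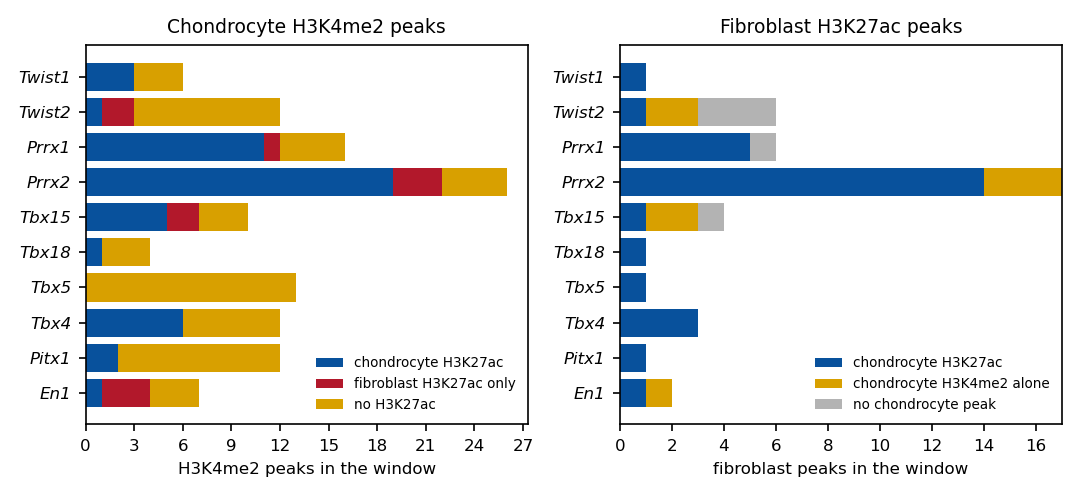
Left, the H3K4me2 peaks in each gene's window, split into those that overlap H3K27ac of replicate 1, WT or the deletion list, those that overlap fibroblast H3K27ac only, and those that overlap neither. Right, the fibroblast H3K27ac peaks split into those over chondrocyte H3K27ac in the same 3 lists, over H3K4me2 alone, or over no chondrocyte peak. Bars count peaks. All 13 H3K4me2 peaks at Tbx5 are without H3K27ac, and 5 of the 6 fibroblast peaks at Twist2 are outside chondrocyte H3K27ac.

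Chondrocytes held 118 H3K4me2 peaks in the 10 windows, from 4 at Tbx18 to 26 at Prrx2. No H3K27ac peak of the 3 mm9 chondrocyte lists overlapped 69 of them, 58.5% (49.0 to 67.5%), against 54% of all H3K4me2 peaks, which is near that background. Read against replicate 1 alone, 91 of the 118 were without H3K27ac, 77.1% (68.5 to 84.3%), against 64.8% of all, an interval that does not hold the background. By place, the share was 80.8% of 99 distal peaks (71.7 to 88.0%, against 74.3%) and 57.9% of 19 promoter peaks (33.5 to 79.7%, against 36.4%). Both of these intervals hold their background. Distal peaks were 99 of the 118, against 49672 of 66355 over the genome, so the pooled share includes this difference in mix. Peaks of 1 window are also not independent. The count over the 3 lists differed between the genes: it was 13 of 13 at Tbx5, 11 of 12 at Twist2, 10 of 12 at Pitx1, 6 of 7 at En1 and 3 of 4 at Tbx18, and 7 of 26 at Prrx2 and 5 of 16 at Prrx1. At Tbx15 it was 5 of 10, at Tbx4 6 of 12 and at Twist1 3 of 6. Of the 118, 11 or 9.32% (4.75 to 16.1%), were without chondrocyte H3K27ac and overlapped a fibroblast peak, against 2.76% of all H3K4me2 peaks. These 11 were 3 at En1, 3 at Prrx2, 2 at Twist2, 2 at Tbx15 and 1 at Prrx1. Counted by fibroblast peak, 8 lay over H3K4me2 alone, because a fibroblast peak can also reach chondrocyte H3K27ac elsewhere along its length. The 1 at Prrx1, for example, lay under a fibroblast peak of 6771 bp that also overlapped WT and deletion peaks. Neighbouring H3K4me2 peaks can share 1 fibroblast peak, so the 11 are not independent.

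The remaining top-scoring H3K4me2 peaks without chondrocyte H3K27ac had no fibroblast peak over them. They lay at -26.0 to -23.9 kb of Prrx1 (2054 bp, top 20.1%), -9.38 to -7.29 kb of Tbx18 (2089 bp, top 22.7%) and 78.8 to 79.9 kb of Pitx1 (1152 bp, top 27.1%, in an intron of Pcbd2). Those at Twist1 and Prrx2 lay in exons of other genes, Ferd3l at -29.8 to -28.3 kb (top 15.5%) and 1700001O22Rik at -34.2 to -32.8 kb (top 9.498%).

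**Figure D5:**
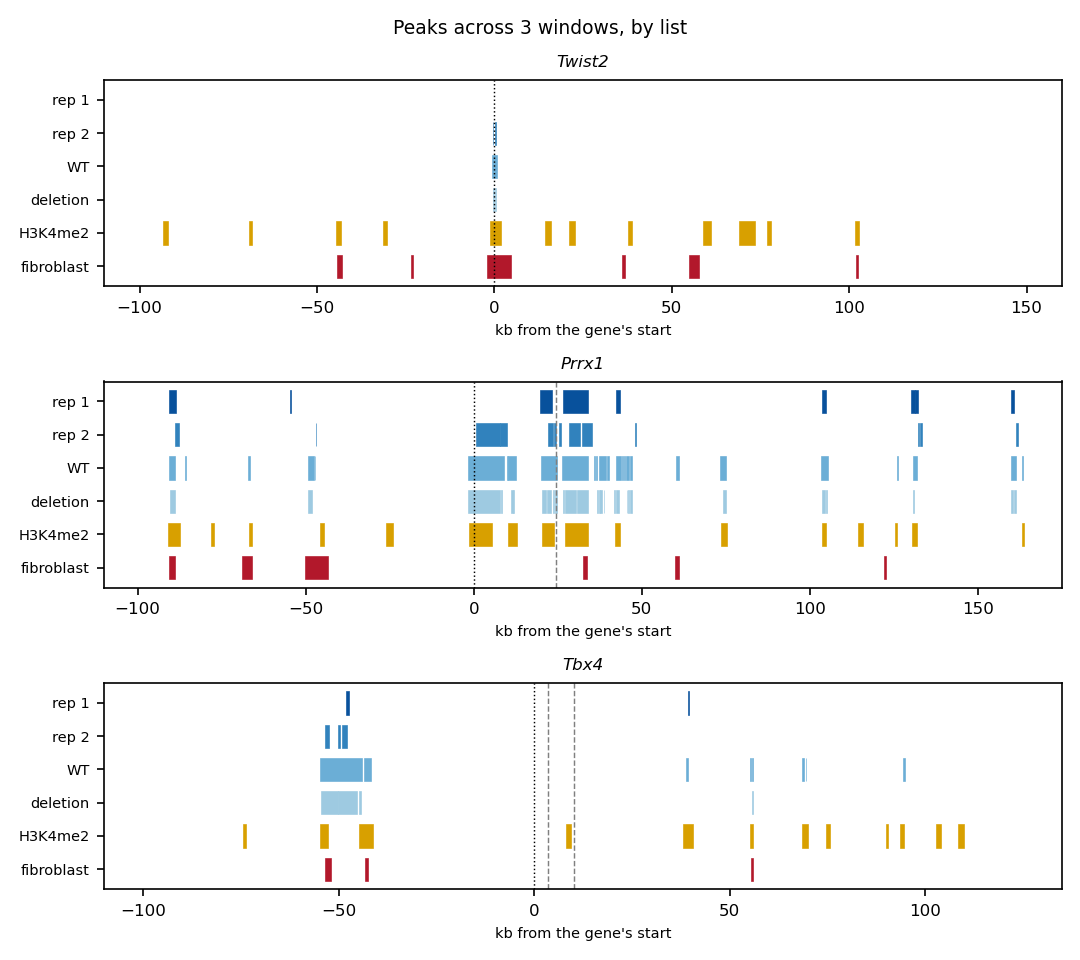
Peaks across the windows of Twist2, Prrx1 and Tbx4, with 1 row per list. The x axis is the distance from the TSS in kb along the gene's strand (for replicate 2, from the RefSeq start on GRCm38), the dotted line marks the TSS and dashed lines further annotated starts. Twist2 has chondrocyte H3K27ac at its start only and H3K4me2 across the window, Prrx1 has chondrocyte H3K27ac through the gene body where fibroblasts have 2 peaks, at 32.4 to 33.8 and 59.9 to 61.1 kb, and most H3K27ac in the Tbx4 window lies near -50 kb.

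Between the genotypes, the windows held 73 WT and 67 deletion peaks. A deletion peak overlapped 46 of the 73 WT peaks, 63.0% (50.9 to 74.0%), against 62.8% of all WT peaks, which is near that background. WT and deletion counts were 5 and 5 at Twist1, 2 and 2 at Twist2, 26 and 28 at Prrx1, 24 and 23 at Prrx2 and 5 and 4 at Tbx15. They were 1 and 0 at Tbx18, 0 and 0 at Tbx5, 8 and 4 at Tbx4, 1 and 1 at Pitx1, and 1 and 0 at En1. The promoters of Tbx18 and En1 were the 2 marked in WT and not in the deletion list, with WT peaks in the top 59.8% and 88.4% of a list that is longer by 33369 to 25213 peaks on chromosomes 1 to 19 and X. Each genotype is 1 library, and the difference in list length and the genotype cannot be told apart at these 2 peaks.

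Among 46 other genes of the same families and pathways, 44 had a position. H3K4me2 marked 32 of the 44 promoters (66.3%), WT 22 (50%), the deletion list 21 (47.1%), replicate 2 18 (43.1%), fibroblasts 16 (47.5%) and replicate 1 15 (44.2%), where each percent is the share of all promoters marked in that list. The counts for WT, the deletion list and replicate 2 were near those backgrounds. Marked in fibroblasts and in neither replicate were 4 (9.09%, against 3.76% of all promoters). Among them were Shox2, a limb homeobox factor, and the odd-skipped factors Osr1 and Osr2. Of those named, WT and the deletion list also marked Osr1. Marked in both replicates and not in fibroblasts were Meis2, the tendon factor Scx, the forkhead factor Foxc2 and Id2, an inhibitor of the E proteins that pair with Twist factors. Counting H3K27ac in either replicate added Meis1 and Foxc1, for 6 in all (13.6%, against 5.04% of all promoters). H3K4me2 with no H3K27ac in either replicate was found at 19 (43.2%, against 19.6% of all promoters), and 17 (38.6%, against 16%) had none in any of the 4 chondrocyte lists. The 17 include Msx1 and Msx2, homeobox factors of limb mesenchyme, Lmx1b, the dorsal limb factor, Hand2, Lhx2 and Lhx9, and the paralogs Pitx3, En2 and Prrxl1. All 6 E proteins and Id factors listed as partners of Twist were marked in every chondrocyte list, and 5 of the 6 in fibroblasts, the exception being Id2.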

How the data were processed

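Peaks were read as the authors deposited them, 1 list per library with replicates not pooled. The submitters' processing notes name fastp, Bowtie2 2.4.4 and MACS2 2.2.4, which the methods run against input, and the build mm9, although replicate 2 has GRCm38 coordinates. Replicate 1, H3K4me2 and fibroblast lists hold only the deposited score, from 50 up, whereas replicate 2, WT and the deletion list also hold the authors' fold enrichment, −log10 p and −log10 q, with a score of 10 times the −log10 q. The lowest deposited −log10 q was 1.33, 2.05 and 2.01. Read counts were not used here, so depth and its effect on missing peaks are unknown. Scores ranked peaks within a list only, since the lists differ in format and lowest score.

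Genes came from GENCODE vM1 (mm9) and RefSeq GRCm38.p6, with the 5′ end as TSS. No coordinate was converted between builds. Replicate 2 entered promoter and window counts, not overlaps. Overlap meant at least 1 bp. A peak was in a window when it touched the gene or 100 kb on either side. Chromosomes 1 to 19 and X were used. The genes, gene lists and counts were chosen with earlier results of these data known, so background shares are printed and no test was run. Named peaks were each gene's promoter peaks, its highest-scoring fibroblast peak without replicate 1 and its highest-scoring H3K4me2 peak without chondrocyte H3K27ac, and other peaks were named after their values were seen. Other genes of the pathway are named where marked in fibroblasts and in neither replicate, in both replicates and not in fibroblasts, or by H3K4me2 alone. A result for 1 gene is not reported here. Counting was tested on simulated peaks at 200 genes and recovered all 605 planted promoter peaks. Python 3.11.15, numpy 2.4.6, pandas 2.3.3 and scipy 1.17.1 were used.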

Additional observations from a re-analysis of the deposited data

How the results depend on the processing

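Of 127 recomputed values, 94 stayed within 1.5 times the reported count or inside its interval. Counts of marked promoters moved as follows. With a 500 bp promoter window, 1 gene, Twist1, was marked in a replicate and not in fibroblasts. Prrx1 left this count because its replicate 2 peak begins 0.774 kb from the GRCm38 gene start, although it spans the start matched in both builds. With the higher-scoring 50% of each list, replicate 1 marked 1 promoter and replicate 2 marked 2, and 5 were marked in fibroblasts and in neither replicate. With equal numbers of top peaks, replicate 1 marked 1 and H3K4me2 marked 3. H3K4me2 with no H3K27ac in either replicate, called H3K4me2 alone in this paragraph, fell to 2. Leaving out each replicate in turn gave 4 to 5 promoters marked in fibroblasts only, 1 to 2 in chondrocytes only and 4 to 6 with H3K4me2 alone. With WT in place of the replicates, H3K4me2 alone was at 2. With all 4 chondrocyte lists, an alternative chosen after seeing the data, 1 promoter was marked in fibroblasts only (Tbx15) and 2 held H3K4me2 alone. Except for H3K4me2 alone with all 4 lists, no share over all genes is given for the counts in this paragraph. The shares of the main settings do not apply to them.

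Peak totals scaled with the window. A flank of 50 kb gave 17 and 23 peaks in the replicates, and 200 kb gave 58 and 65, with 118 in WT, 102 in the deletion list and 71 in fibroblasts. The higher-scoring 50% gave 15, 16, 41, 27 and 19. Equal numbers of top peaks left 44 in WT, and merging peaks under 1 kb apart left 41 in the deletion list. The share of fibroblast peaks over replicate 1 fell to 19.05% under 50% reciprocal overlap and rose to 64.3% with WT in its place. The share over H3K4me2 with no replicate 1 H3K27ac was 19.05% under either reciprocal overlap or equal lists, and 21.4% with WT in place of replicate 1. H3K4me2 without H3K27ac was 75.4% under reciprocal overlap. Genes with more fibroblast peaks numbered 3 against WT, again with no share over all genes given. Placing RefSeq promoters in mm9 by sequence, also chosen after seeing the data, moved no count by more than 1.5 times. It raised the promoters marked by H3K4me2 from 7 to 9, and those with H3K4me2 and no H3K27ac in either replicate from 4 to 5. H3K4me2 also marked 9 promoters with a window of 2 kb and with the starts of coding transcripts. The cause of these changes was not tested. No paired analysis was possible because only 1 group has 2 libraries and no result comes from a test.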
